A study of Mus musculus with 10 samples.

Results

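Activins, their receptors and the follistatin-type proteins that bind them were followed in bulk RNA-seq of the mouse anterior fontanelle (AF) at E18.5, late in gestation. The group holds 9 genes of the 23080 in the table, namely the ligand subunits *Inhba* and *Inhbb*, the receptors *Acvr1*, *Acvr1b*, *Acvr2a* and *Acvr2b*, and the follistatins *Fst*, *Fstl1* and *Fstl3*. The genes were selected by symbol, as a family, with the values of the control and mutant comparison already in view. Their differences between the groups are therefore given as a description, and the adjusted p-values printed beside them only place each gene within the fit of all genes. All 9 had a row and all 9 passed the filter on low counts, after which 16267 genes were tested.

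The libraries came from AF tissue labelled WT (5 libraries, called control-labelled) and from AF tissue labelled *Wnt1-Cre; Fgfr2fl/fl* (5 libraries, called mutant-labelled). *Wnt1-Cre* drives recombination in neural crest cells, so floxed *Fgfr2* is targeted in the frontal bone and AF mesenchyme that descends from them, while cells of other origin in the same piece keep the gene. Each piece held suture connective tissue and bone, and skin and brain had been removed. According to the study the groups were made up of littermates, paired by genotype, but the labels do not say which libraries form a pair. The counts per library summed to between 20774667 and 28515434, of which ribosomal RNA genes took 18.7% to 33.6%. *Fgfr2*, the targeted gene, went against the label: it was at 199.5 ± 21.7 CPM (read counts scaled to library size with TMM factors) in the control-labelled group and 318 ± 32.8 CPM in the mutant-labelled group (mean ± SD of 5 libraries per group), with no overlap between the groups. A count per gene sums intact and recombined transcripts alike, so it does not check the deletion, and every direction below is that of the labels.

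The tissue carried markers of bone and of fontanelle connective tissue. The 12 osteoblast markers, such as *Ibsp* and *Sp7*, summed to 66445 to 78062 CPM in the control-labelled group and 54330 to 78790 CPM in the other. These sums mostly follow *Col1a1*, with means of 66247 and 64070 CPM (log2 fold change −0.048). Of the 12 markers, 12 had a fold change below 0 (median log2 fold change −0.29), 7 of them with an unadjusted p-value under 0.05. The 9 markers of fontanelle connective tissue showed a median of 0.28 on the same scale, with 6 above 0 and 3 below, of which 5 and 1 had an unadjusted p-value under 0.05. The 1 below was *Tnc* (log2 fold change −0.25). Groups of 2 of them did not overlap, *Tnmd* (log2 fold change 0.58) and *Matn4* (0.64), both higher in the mutant-labelled libraries. Of the osteoblast markers 1 did not overlap, and it was lower there. Over all genes tested, 7.49% had an unadjusted p-value under 0.05 and 1.48% did not overlap. Of the 8 osteoclast markers 7 had a log2 fold change below 0 (median −0.16), as did 7 of the 8 macrophage markers (median −0.14). Of the 9 chondrocyte markers 6 were above 0 and 3 below (median 0.19). The part of these shifts in the differences described below was not tested. In libraries made from whole tissue, fewer cells of one type and less RNA in each of them cannot be told apart.

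Activins are dimers of the beta subunits that *Inhba* (beta A) and *Inhbb* (beta B) encode, and they belong to the TGF-beta superfamily. An activin binds a type II receptor, ACVR2A or ACVR2B, which recruits and phosphorylates the type I receptor ACVR1B, and SMAD2 and SMAD3 then carry the signal to the nucleus. ACVR1, another type I receptor, mainly passes BMP signals to SMAD1, SMAD5 and SMAD9, and its activating mutations cause heterotopic bone formation in fibrodysplasia ossificans progressiva. Follistatin (*Fst*) and follistatin-like 3 (*Fstl3*) wrap around activins and block receptor binding. FSTL1 shares a follistatin domain but is a secreted glycoprotein with other partners. In skeletal tissue, activin A is known to act on osteoblasts and osteoclasts.

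The subunit genes differ in the DNA that precedes them. The 250 bases before the start site of each are shown because these were the ligand genes compared, both of them with higher means in the mutant-labelled libraries (RefSeq, GRCm38.p6, read 5′ to 3′ on the strand of the gene). The *Inhba* stretch is chr13:16011601-16011850 on the plus strand and the *Inhbb* stretch is chr1:119422249-119422498 on the minus strand. Capitals mark a match to the letters of a TATA box (TATAAA) in *Inhba*, 91 bases before the start. In *Inhbb* they mark a match to those of a GC box (GGGCGG, here on the opposite strand). Whether either stretch works as such a site was not tested.
Inhba: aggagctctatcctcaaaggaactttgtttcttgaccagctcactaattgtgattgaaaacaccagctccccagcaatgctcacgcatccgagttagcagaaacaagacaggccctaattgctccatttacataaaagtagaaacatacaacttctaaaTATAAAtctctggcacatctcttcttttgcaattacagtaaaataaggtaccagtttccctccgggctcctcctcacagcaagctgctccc
Inhbb: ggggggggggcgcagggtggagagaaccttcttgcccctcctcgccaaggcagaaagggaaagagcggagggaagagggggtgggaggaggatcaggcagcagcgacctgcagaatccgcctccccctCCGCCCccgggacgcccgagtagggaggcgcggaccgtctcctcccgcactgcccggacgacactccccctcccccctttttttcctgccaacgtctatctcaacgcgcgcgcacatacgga

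The *Inhba* stretch held 43.2% G and C and the *Inhbb* stretch 68.0%, against a median of 52.4% over 32851 promoters of the same length. The 8 members with a promoter in the RefSeq table (all but *Fst*) were searched on both strands for 4 motifs, none of which contains another. TATAAA was found in *Inhba*, 91 bases before the start, and in *Fstl3*, 29 bases before it, and occurred in 12.4% of all promoters. GGGCGG was found in 7 of the 8, *Inhba* being without it, and occurred in 32.7% of all promoters. The AP-1 site TGANTCA (6.75% of all promoters) and the letters TGACG, part of a cAMP response element (17.8%), were in none of the 8 windows.

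The levels of the 9 genes were compared per kilobase of exon, since longer transcripts collect more reads. *Fstl1* stood far above the rest, at 201 ± 16.8 CPM per kb in control-labelled libraries (mean ± SD, n = 5), followed by *Acvr1* at 9.66 ± 0.915 and *Acvr1b* at 4.71 ± 0.439 CPM per kb. The type I receptors did not overlap with each other or with *Fstl1* in any control-labelled library. *Fstl3* and *Acvr2a* came next, at 3.16 ± 0.323 and 3.14 ± 0.202 CPM per kb, and overlapped. The ligand subunits were lower, *Inhba* at 1.56 ± 0.294 and *Inhbb* at 1.29 ± 0.0797 CPM per kb, and overlapped in control-labelled libraries. *Acvr2b*, at 1.19 ± 0.271 CPM per kb, overlapped with both subunits. *Fst* was lowest, at 0.765 ± 0.286 CPM per kb, and overlapped with *Inhba*, *Inhbb* and *Acvr2b*.

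In mutant-labelled libraries the means of the subunits stood in the other order, with *Inhbb* at 2.04 ± 0.193 and *Inhba* at 1.94 ± 0.167 CPM per kb, and their ranges again overlapped. Neither subunit, *Inhbb* at 1.83 to 2.24 and *Inhba* at 1.70 to 2.17 CPM per kb, overlapped there with *Acvr2b*, at 0.944 to 1.37 CPM per kb, or with *Fst*, at 0.858 to 1.62 CPM per kb. *Acvr2a*, at 3.26 ± 0.458 CPM per kb, had a higher mean than *Fstl3*, at 2.68 ± 0.312, with overlapping ranges. Both the gap between *Fst* and the subunits and this order depended on the gene length used. With the longest coding transcript as length, mutant-labelled *Fst* was at 1.39 to 2.62 CPM per kb and overlapped with both subunits. *Fstl3* was then at 3.36 ± 0.390 CPM per kb, above the mean of *Acvr2a*.

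**Figure D1:**
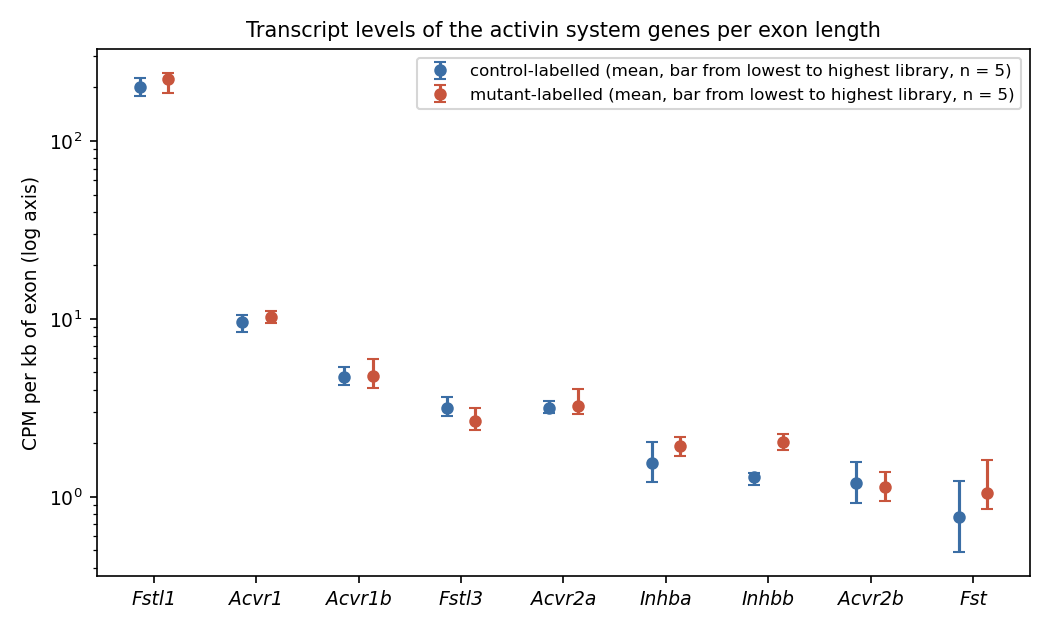
Level of each gene in CPM per kilobase of exon (log axis) for the control-labelled (blue) and mutant-labelled (red) libraries, with the mean of 5 libraries as a point and a bar from the lowest to the highest. *Fstl1* is far above the others, and *Inhbb* is the gene whose bars are apart between the groups.

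*Inhbb* had the largest difference between the groups among the 9 genes. It lies on chromosome 1 from 119415465 to 119422248 (GRCm38, minus strand) and shares no exon bases with another annotated gene. Its level was 5.78, 5.42, 5.66, 4.95 and 5.71 CPM in control-labelled replicates 1 to 5 and 8.40, 9.54, 7.79, 9.53 and 8.08 CPM in mutant-labelled replicates 1 to 5. All 5 mutant-labelled libraries were above all 5 control-labelled libraries, and the control-labelled ones differed among themselves by a coefficient of variation (CV) of 6.17%, under the 7.64% that counting error alone gives at the mean count of the gene. The means were 5.50 ± 0.339 and 8.67 ± 0.821 CPM (mean ± SD of 5 libraries per group), a log2 fold change of 0.66 with a standard error (SE) of 0.092, or 1.58-fold. With a rank of 4 by p-value among the genes tested, *Inhbb* did not pass the threshold of 0.05 in edgeR's quasi-likelihood test (adjusted p = 0.0582), whereas DESeq2's Wald test gave an adjusted p of 1.67e-05. By the edgeR test 0 of the 9 members and 0.0184% of all genes had an adjusted p-value under 0.05, and at a threshold of 0.1 these were 1 of 9 and 0.0246%. *Inhbb* was the 1 member whose groups did not overlap, while 1.48% of all genes did not overlap in either direction and 0.781% did not overlap with the mutant-labelled libraries higher.

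*Inhba* differed less. It lies on chromosome 13 from 16011851 to 16031621 (plus strand), with no exon bases shared. Its level was 9.49, 12.97, 9.82, 9.73 and 7.78 CPM in control-labelled replicates 1 to 5 and 12.4, 12.6, 10.9, 12.3 and 13.9 CPM in mutant-labelled replicates 1 to 5. The groups overlapped through control-labelled replicate 2, which was above 4 of the 5 mutant-labelled libraries, while the other 4 control-labelled libraries were below every mutant-labelled one. The means were 9.96 ± 1.88 and 12.4 ± 1.07 CPM (mean ± SD of 5 libraries per group), a log2 fold change of 0.31 (SE 0.12, edgeR quasi-likelihood adjusted p = 0.634).

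*Inha*, which encodes the alpha subunit that pairs with a beta subunit to form inhibin, was at a mean of 3.49 CPM in the control-labelled group and of 3.80 CPM in the mutant-labelled group. The ratio of *Inhba* to *Inhbb* counts within a library, which does not depend on how libraries are scaled, was 1.79 in the control-labelled group and 1.43 in the mutant-labelled group (geometric means). On the log2 scale it was 0.84 ± 0.30 and 0.52 ± 0.17 (mean ± SD of 5 libraries per group), with overlapping ranges of 0.45 to 1.26 and 0.36 to 0.78.

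**Figure D2:**
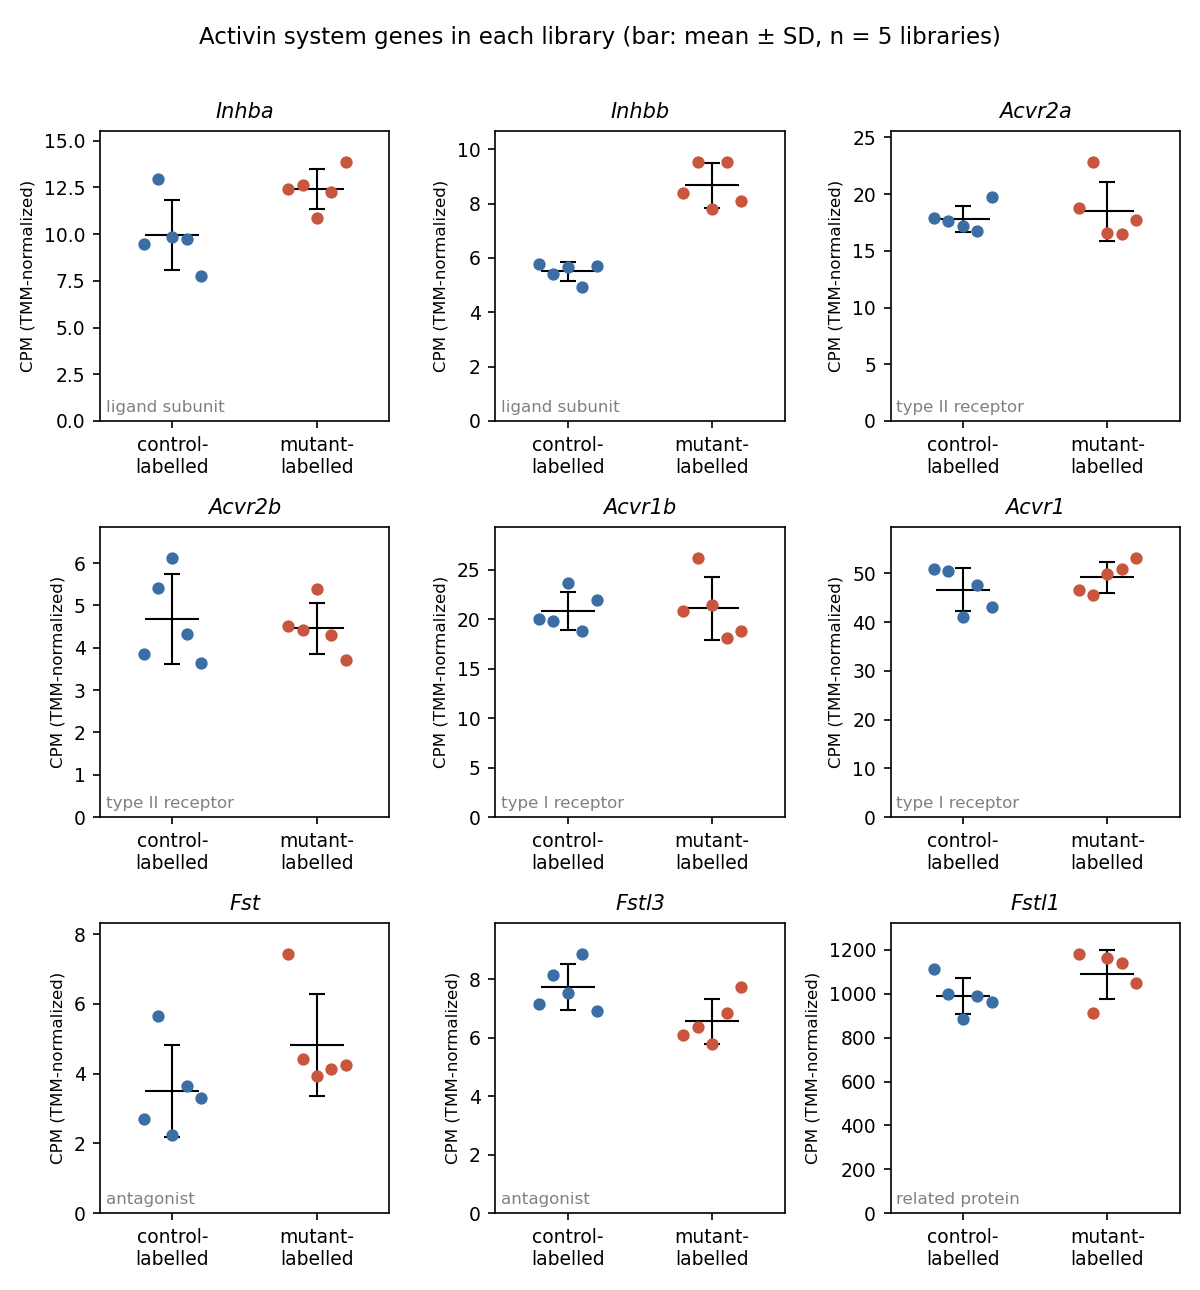
CPM of each of the 9 genes in each of the 10 libraries (points, replicates 1 to 5 from left to right), with the group mean and SD as a bar, on axes that start at 0. For *Inhbb* all red points lie above all blue points, and for the other 8 genes the groups overlap.

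The type II receptors, which bind the ligand first, differed little between the groups. *Acvr2a* (chromosome 2, 48814109 to 48903269) was at 17.9, 17.6, 17.2, 16.8 and 19.7 CPM in control-labelled replicates 1 to 5, and at 18.8, 22.9, 16.6, 16.5 and 17.8 CPM in the mutant-labelled replicates in the same order. Mutant-labelled replicate 2 was highest, and both the highest and the lowest library were mutant-labelled. The log2 fold change was 0.054 (SE 0.092), and it was −0.028 without mutant-labelled replicate 2. The gene shares 446 exon bases with *Orc4* on the opposite strand, which was itself counted at 343 to 534 per library, and without a stated strand setting the reads of such a pair cannot be told apart.

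*Acvr2b* (chromosome 9, 119402118 to 119434995) was at 3.85, 5.42, 6.12, 4.33 and 3.63 CPM in control-labelled replicates 1 to 5, and at 4.50, 4.41, 5.39, 4.30 and 3.71 CPM in the mutant-labelled replicates in the same order. The lowest and the highest library were both control-labelled, and the mutant-labelled ones lay between them. Its log2 fold change of −0.066 (SE 0.16) rests on 84 to 158 counts per library, and it was above 0 without control-labelled replicate 2 (0.0011) or replicate 3 (0.058). Within a library *Acvr2a* had 3.89 times the counts of *Acvr2b* in the control-labelled group and 4.15 times in the mutant-labelled group, with overlapping ranges, and the log2 difference of 0.093 ran from −0.025 (without control-labelled replicate 3) to 0.21 when 1 library was left out.

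The type I receptors differed little as well. *Acvr1b* (chromosome 15, 101174067 to 101213684), the receptor that transmits activin signals to SMAD2 and SMAD3, was at 20.02, 19.8, 23.6, 18.8 and 21.9 CPM in control-labelled replicates 1 to 5, and at 20.8, 26.2, 21.5, 18.1 and 18.8 CPM in the mutant-labelled replicates in the same order. The mutant-labelled libraries included both the lowest and the highest value, and the log2 fold change was 0.020 (SE 0.10). It was −0.065 without mutant-labelled replicate 2 and −0.015 without control-labelled replicate 4. *Acvr1c*, which encodes the alternative type I receptor for some activins, had 28 counts over all 10 libraries and was not tested.

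*Acvr1* (chromosome 2, 58388644 to 58567157) was at 50.9, 50.4, 40.9, 47.7 and 43.2 CPM in control-labelled replicates 1 to 5, and at 46.5, 45.6, 49.9, 50.9 and 53.2 CPM in the mutant-labelled replicates in the same order. The groups overlapped over most of their range, with a log2 fold change of 0.077 (SE 0.072). Its counts were 2.24 times those of *Acvr1b* in the control-labelled group and 2.35 times in the mutant-labelled group, and the log2 difference of 0.069 ran from −0.024 (without control-labelled replicate 3) to 0.18 in the same way. The adjusted p-values of the 4 receptors in the edgeR quasi-likelihood fit lay between 0.844 and 0.976.

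Mutant-labelled replicate 2 was also the library with the most neuronal transcripts. The 8 neuronal markers, among them *Tubb3* and *Map2*, summed to 475 CPM in it, against 55.0 to 129 CPM in the control-labelled group and 62.1 to 189.8 CPM in the other mutant-labelled libraries. All 8 had a log2 fold change above 0 (median 0.87), with 2 at an unadjusted p-value under 0.05, a level that 7.49% of all genes passed. *Inhbb* followed the same order within the mutant-labelled group: replicates 2, 4, 1, 5 and 3 held 475, 189.8, 164, 114 and 62.1 CPM of neuronal markers and 9.54, 9.53, 8.40, 8.08 and 7.79 CPM of *Inhbb*. Replicates 5 and 3 lay within the control-labelled range of the neuronal sum, and their *Inhbb* was above that of every control-labelled library. The control-labelled group did not follow this order. Its replicate 1 was highest in *Inhbb* (5.78 CPM) with 99.7 CPM of neuronal markers, against 129 CPM in its replicate 5. The order was picked out after the values of several marker lists and members were seen. Without mutant-labelled replicate 2 the log2 fold change of *Inhbb* was 0.62. The part of the neuronal transcripts in the *Inhbb*, *Acvr1b* and *Acvr2a* values was not tested.

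*Fst*, the main secreted activin antagonist, was the most variable of the 9 genes, with a CV of 37.4% in the control-labelled group and 30.3% in the mutant-labelled group. Counting error alone gives a CV of 9.93% at its mean count, with 53 to 165 counts per library. It lies on chromosome 13 from 114452290 to 114458951 (minus strand), with 115 exon bases shared with *Gm47040* on the opposite strand. Its level was 2.71, 5.66, 2.25, 3.64 and 3.30 CPM in control-labelled replicates 1 to 5 and 7.43, 4.41, 3.94, 4.13 and 4.24 CPM in mutant-labelled replicates 1 to 5. In each group 1 library stood above the other 4, control-labelled replicate 2 and mutant-labelled replicate 1. The log2 fold change was 0.45 (SE 0.26, edgeR quasi-likelihood adjusted p = 0.7103), and it moved to 0.71 when control-labelled replicate 2 was left out and to 0.26 when mutant-labelled replicate 1 was.

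The same 2 libraries were the highest in skeletal muscle transcripts. The 8 tested markers of 11 listed, such as *Acta1* and *Myh3*, summed to 735.5 CPM in control-labelled replicate 2 and 731 CPM in mutant-labelled replicate 1, and to 23.9 to 151 CPM in the other 8 libraries. *Myod1*, *Myog* and *Pax7*, which mark muscle precursors, were under the filter. Summed muscle markers covered a like range in both groups, and 0 of the 8 had an unadjusted p-value under 0.05. Whether the muscle transcripts account for the *Fst* values was not tested.

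With those 2 libraries left out, a choice made after their values were seen, *Fst* was at 2.27 to 3.64 CPM in 4 control-labelled and 3.95 to 4.48 CPM in 4 mutant-labelled libraries. Its log2 fold change was then 0.50 (SE 0.17, edgeR quasi-likelihood adjusted p = 0.534). *Inhba* was at 7.77 to 9.88 and 10.9 to 14.0 CPM in the same libraries, with a log2 fold change of 0.44 (SE 0.11, edgeR adjusted p = 0.411), and *Inhbb* had a log2 fold change of 0.67 (adjusted p = 0.222). For these 3 genes of the 9 the mutant-labelled libraries were all above the control-labelled ones, as they were for 2.18% of the genes tested there. *Inhbb* was already apart with all libraries in, and *Inhba* and *Fst* had overlapped only through control-labelled replicate 2. Leaving that library out therefore fixed their separation, and the 3 of 9 cannot be weighed against the share of all genes.

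**Figure D3:**
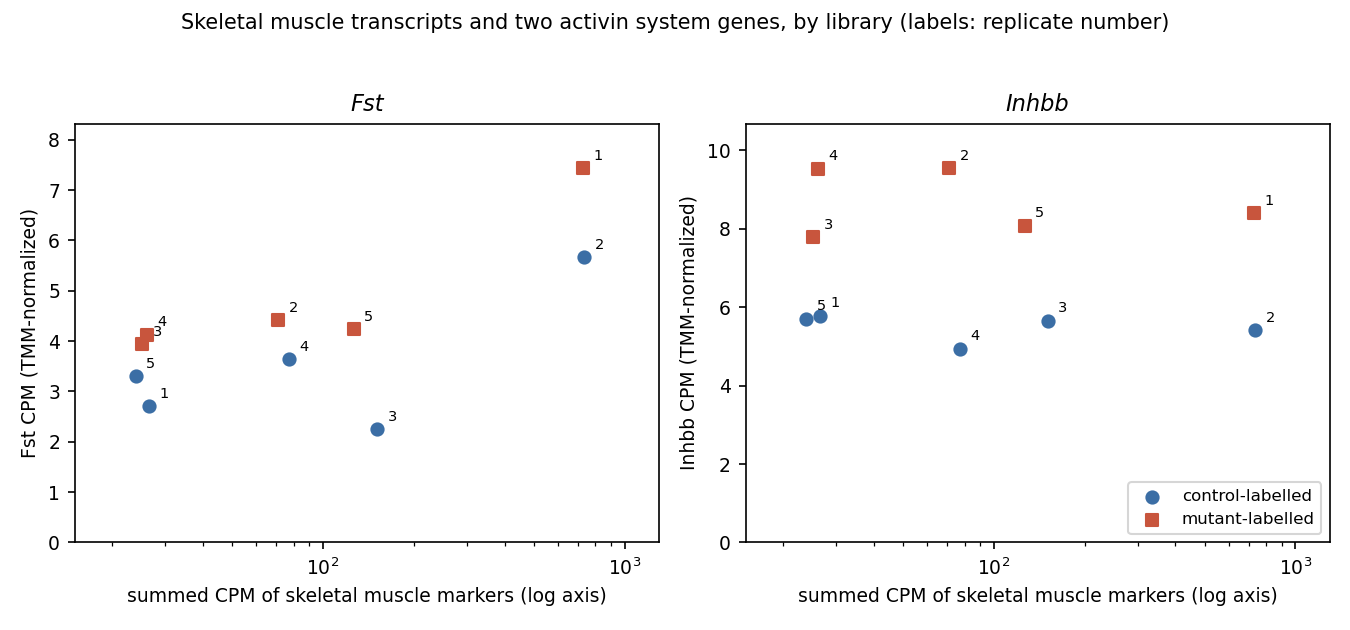
CPM of *Fst* (left) and *Inhbb* (right) against the summed CPM of skeletal muscle markers (log axis) in each library, with replicate numbers beside the points. The 2 libraries at the right edge, near 731 and 735.5 CPM, hold the highest *Fst* of their group, whereas *Inhbb* separates the groups along the whole axis.

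*Fstl3*, which also binds activins, was the member with a lower mean in the mutant-labelled libraries besides *Acvr2b*. It lies on chromosome 10 from 79777272 to 79782630 (plus strand) and shares 1157 exon bases with *Prss57* on the opposite strand, a gene with 1 to 5 counts per library. Its level was 7.15, 8.16, 7.53, 8.87 and 6.93 CPM in control-labelled replicates 1 to 5, and 6.08, 6.36, 5.78, 6.85 and 7.73 CPM in the mutant-labelled replicates in the same order. Of the mutant-labelled libraries 4 were below every control-labelled one, and replicate 5 overlapped with them. The log2 fold change was −0.24 (SE 0.11, edgeR quasi-likelihood adjusted p = 0.659). Within a library the log2 ratio of *Fst* to *Fstl3* counts was −1.21 ± 0.45 in the control-labelled group and −0.48 ± 0.45 in the mutant-labelled group (mean ± SD of 5 libraries per group). The ratio of *Fst* to *Inhba*, antagonist to ligand, was −1.56 ± 0.40 and −1.40 ± 0.38 on the same scale. For *Fst* to *Fstl3*, control-labelled replicate 2 (−0.53) was above 3 of the 5 mutant-labelled libraries, and the other 4 control-labelled libraries were below every mutant-labelled one. For *Fst* to *Inhba* the groups overlapped over most of their range, and the difference of 0.16 was −0.0072 without mutant-labelled replicate 1.

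**Figure D4:**
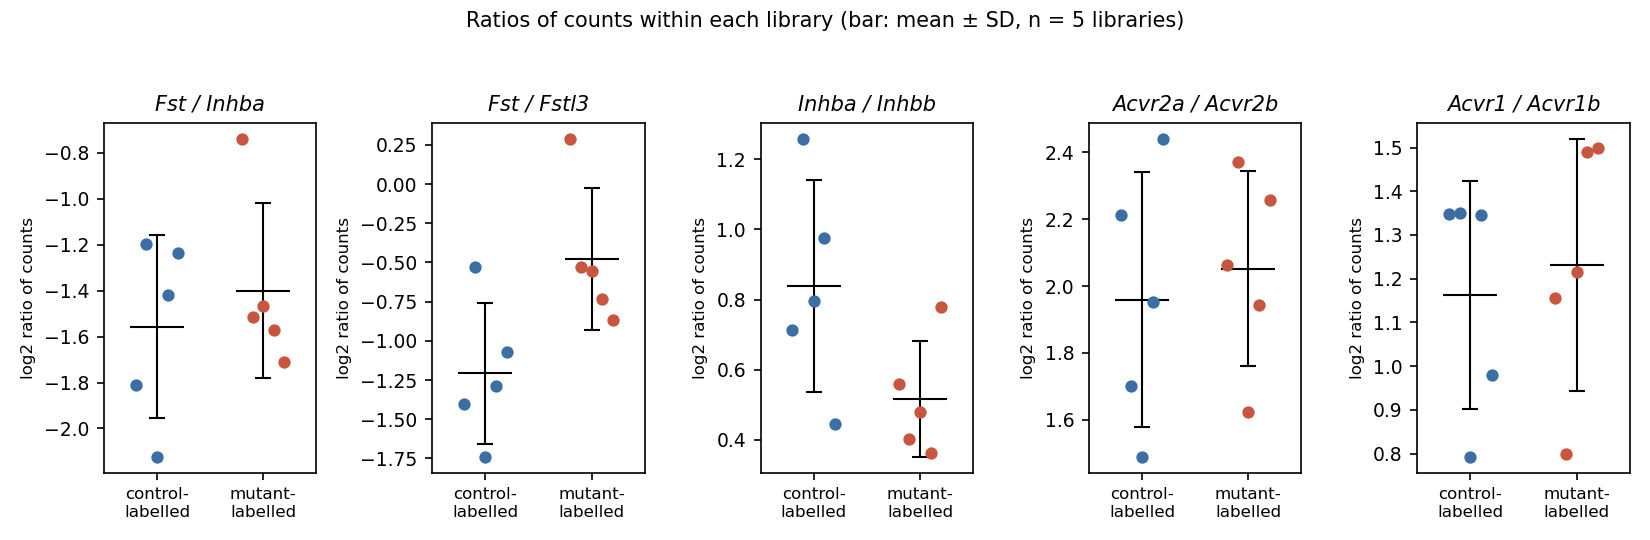
Log2 ratio of the counts of 2 members within each library, for 5 pairs of genes, with points for the libraries and bars for the mean and SD of 5. *Fst* to *Fstl3* shows the largest shift, 0.73 on the log2 scale, and the receptor pairs shift by 0.093 and 0.069, both of which are below 0 without control-labelled replicate 3.

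*Fstl1* (chromosome 16, 37776873 to 37836514) was by far the most abundant member. Its level was 1113, 997, 883, 988 and 963 CPM in control-labelled replicates 1 to 5, and 1181, 912, 1163, 1142 and 1047 CPM in the mutant-labelled replicates in the same order. Mutant-labelled replicates 2 and 5 were within the control-labelled range. The log2 fold change was 0.14 (SE 0.088, edgeR quasi-likelihood adjusted p = 0.742).

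Of the 9 genes, 7 had a log2 fold change above 0 and 2 below, with a median of 0.077, against 50.3% above 0 and a median of 0.00073 over all genes tested. Without adjustment, 3 members had a p-value under 0.05, *Inhbb* and *Inhba* above 0 and *Fstl3* below, while 7.49% of all genes passed that level, 3.68% above 0 and 3.82% below. The sign count turned on receptors that were near 0, and it was 5 of 9 without mutant-labelled replicate 2 and 8 of 9 without control-labelled replicate 2 or 3.

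**Figure D5:**
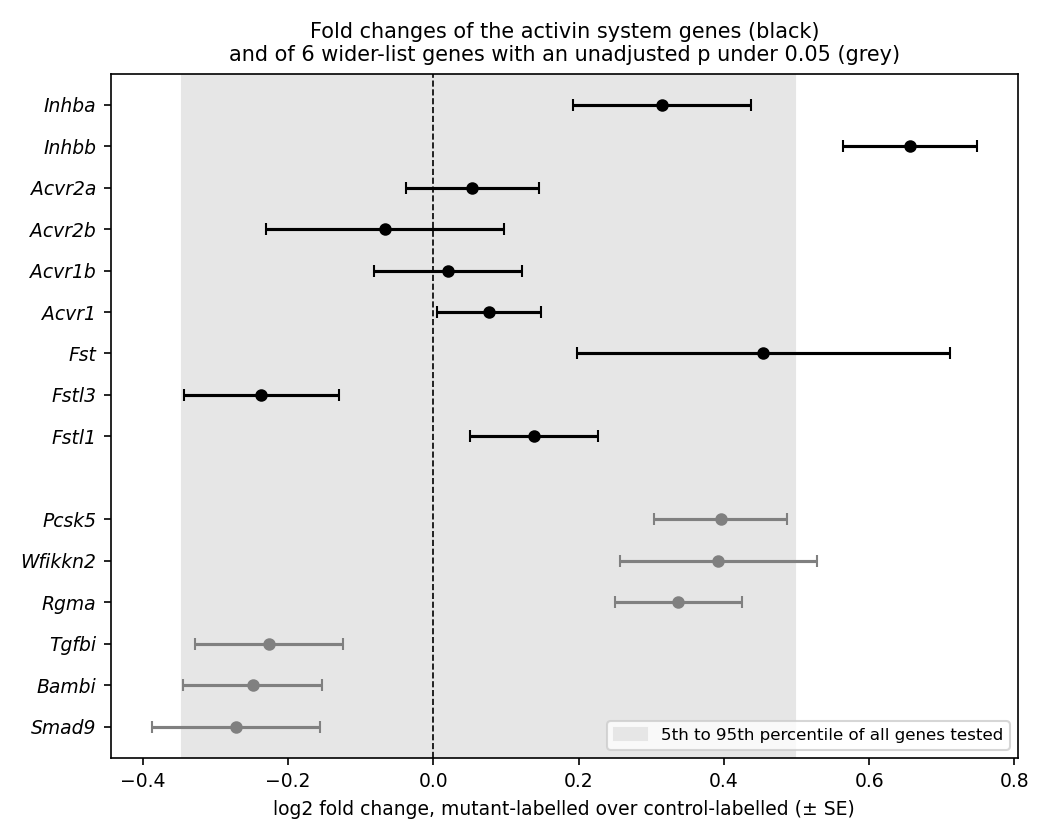
Log2 fold change (mutant-labelled over control-labelled) with its standard error for the 9 genes (black) and for 6 genes of the wider list with an unadjusted p-value under 0.05 (grey), over the 5th to 95th percentile of all genes (−0.35 to 0.50, shaded). Of the points drawn, *Inhbb* lies outside the shaded range.

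A wider list of 66 genes of the activin, nodal and SMAD pathway was written from gene function, and 55 of them were tested. In the edgeR test 0 had an adjusted p-value under 0.05, 28 were above 0 and 27 below, with a median log2 fold change of 0.0039. Without adjustment, 7 of the 55 had a p-value under 0.05, 3 of them above 0 and 4 below. Of all genes tested 7.49% passed that level, 3.68% above 0 and 3.82% below.

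Of the other ligands of the branch, *Gdf11*, which binds the same type II receptors, was at 15.4 CPM in both groups, and *Inha*, *Gdf1*, *Gdf9* and *Lefty1* were between 0.903 and 3.80 CPM. *Mstn*, which encodes the muscle growth inhibitor myostatin, had 69 counts over all libraries and *Lefty2* had 25. None of the 5 tested ligands passed an unadjusted p-value of 0.05.

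Among co-receptors and processing enzymes, *Pcsk5*, a proprotein convertase that cleaves growth factor precursors, was at 58.0 ± 4.40 CPM in the control-labelled group and at 76.3 ± 10.4 CPM in the mutant-labelled group (mean ± SD of 5 libraries per group). Its log2 fold change was 0.40 (SE 0.091, edgeR quasi-likelihood adjusted p = 0.307, and 0.0164 from DESeq2's Wald test), and its groups overlapped at 64.0 to 64.1 CPM. *Rgma*, a BMP co-receptor, had means of 26.4 ± 3.36 and 33.3 ± 2.31 CPM (log2 fold change 0.34). *Wfikkn2*, a secreted protein with a follistatin domain that binds myostatin and GDF11, had means of 14.1 ± 1.99 and 18.53 ± 3.64 CPM (log2 fold change 0.39).

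*Bambi*, a pseudoreceptor that blocks type I receptors, was at 46.7 ± 4.73 CPM in the control-labelled group and at 39.3 ± 5.22 CPM in the mutant-labelled group (mean ± SD of 5 libraries per group), a log2 fold change of −0.25. *Smad9*, a SMAD of the BMP branch, had means of 15.3 ± 0.889 and 12.7 ± 2.31 CPM (log2 fold change −0.27). Of the other SMAD genes, *Smad2* and *Smad3* had log2 fold changes of 0.093 and −0.074, and *Smad4* was at 55.0 CPM in mutant-labelled and 54.9 CPM in control-labelled libraries.

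The list held 8 genes known to respond to activin, TGF-beta or BMP receptors, 7 with a log2 fold change below 0 and 1 above, with a median of −0.049. *Tgfbi*, which encodes a matrix protein, was at 76.0 ± 6.46 CPM in the control-labelled group and at 65.0 ± 10.1 CPM in the mutant-labelled group (mean ± SD of 5 libraries per group), a log2 fold change of −0.23. The BMP targets *Id1*, *Id2* and *Id3* had log2 fold changes of −0.027, −0.055 and −0.043. The adjusted p-values of the 6 list genes named here at an unadjusted p under 0.05 were 0.307 to 0.659 in edgeR's quasi-likelihood test.

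The genes whose log2 CPM followed *Inhba* most closely over the 10 libraries, among 11008 genes with a mean of at least 5 CPM, were *Mcu*, *Atxn7l3* and *Fancg*, with Pearson's r of 0.922, 0.917 and 0.902. Those closest to *Fst* were *Vstm2l*, *Ehmt2* and *Sfxn3*, with r of 0.882, 0.874 and 0.868. These are the highest of many values computed on the same libraries, which also share depth and tissue composition, and they are given as a description.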

How the data were processed

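AF tissue of E18.5 embryos was profiled by stranded, single-end RNA-seq in 5 WT and 5 *Wnt1-Cre; Fgfr2fl/fl* libraries. The authors deposited 1 table of estimated counts per gene, not scaled between libraries (66.4% of values whole, lowest sum per gene 10). The submitters' processing notes name Partek and mm10, while aligner, counting tool and use of strand are not given in the sources used here. Symbols matched GENCODE M21 (GRCm38), with the same position for 22296 of 22533. Library names in the labels tied each column to its sample.

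The design assumed whole counts, and because the table held estimates each value was rounded, with the test kept. R 4.3.3 with edgeR 4.0.16 (expression filter, TMM, quasi-likelihood test over all 10 libraries, no covariate, Benjamini-Hochberg over 16267 genes, threshold 0.05) was used, with DESeq2 1.42.0 as an alternative. Standard errors are the log2 fold change over the root of the F statistic. Exon lengths were unions of annotated exons. Tested on simulated data, edgeR found 72% of simulated 1-log2 changes and 37.5% of simulated 0.5-log2 changes, with 5.47% and 6.64% of calls false. All replicate pairs differed by more than sampling noise (chi-square per degree of freedom 8.14 to 99.3). Genes at a few CPM rest on 53 to 240 counts, so counting error adds to the spread.

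The members, the wider list, the markers and the motifs were chosen with earlier results of these data known. Named genes were all members, *Fgfr2*, list genes with an unadjusted p-value under 0.05, and the 3 genes closest to *Inhba* and to *Fst*. The values of 1 list gene that met this rule are not reported here. Other list and marker genes were named after their values were seen. Alternatives were other size factors, library size alone, DESeq2, other filters, no ribosomal RNA genes, other thresholds, another gene length, the replicate number as a block and leaving out each library.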

Additional observations from a re-analysis of the deposited data

Results flagged for a closer look

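Of 18 groups of 5 values (9 genes in 2 groups), 1 held a library set apart from the other 4 by more than Dixon's 95% limit of 0.71 for the gap over the range, and about 1 in 20 such groups passes that limit by chance. *Fst* was at 7.43 CPM in mutant-labelled replicate 1, against 4.41 CPM in the next library, a gap of 0.864 of the range. That library also held 731 CPM of skeletal muscle markers. The part of these transcripts in the *Fst* value was not tested.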

How the results depend on the processing

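The number of members called, 0 in the edgeR test, was 1 (*Inhbb*) with DESeq2's Wald test and at an adjusted threshold of 0.1 (0.0246% of all genes), and 3 at an unadjusted threshold of 0.05. It was 0 under the other alternatives, and 0 each time a library was left out. The wider list had 0 calls, 1 (*Pcsk5*) with DESeq2 and 7 at the unadjusted threshold, which 7.49% of all genes passed. DESeq2 called 97 genes in all, edgeR 3. The cause of the difference was not tested.

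*Inhbb* stayed between 0.62 and 0.70 on the log2 scale when 1 library was left out (adjusted p = 0.0831 to 0.26 from edgeR's test), with an adjusted p of 0.395 by library size alone, 0.0562 with DESeq2's size factors and 0.222 without the libraries highest in muscle markers. *Inhba*, *Fst*, *Fstl1* and *Acvr1* stayed above 0 and *Fstl3* below 0 in all fits run. *Acvr1b* was −0.015 by library size alone. With 1 library left out, *Acvr1b* ran from −0.065 (without mutant-labelled replicate 2) to 0.079, *Acvr2a* from −0.028 (the same library) to 0.10, and *Acvr2b* from −0.14 to 0.058 (when control-labelled replicate 3 was out). Library size alone moved the median of all genes to −0.038. With the longest coding transcript as length, 7 of 9 genes kept their rank in control-labelled libraries, *Inhbb* and *Acvr2b* trading places. In mutant-labelled libraries *Fst* then overlapped with both subunits.

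Same-numbered libraries had correlations of deviations from −0.211 to 0.139, so the numbers give no pairing, and the littermate pairs the study describes could not be fitted from the labels. With the replicate number as a block, 0 members and 1 gene in all were called, and *Inhbb* was at 0.65 (adjusted p = 0.427 from edgeR's test). Counting error is a larger share of the spread for *Acvr2b* (counting CV 9.46%, observed CV 22.8% in control-labelled libraries) than for *Fst* (9.93% and 37.4%), where the spread between libraries limits more than depth.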
